A study of Homo sapiens with 19 samples.

Results

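The death receptors and the caspase-8 pathway were followed across RNA sequencing read counts from 19 libraries of SHEP TET21N, an established human neuroblastoma cell line that carries a MYCN transgene controlled by doxycycline. The 10 members were taken from the gene table by symbol, out of 23367 genes: the receptors FAS, TNFRSF10A, TNFRSF10B, TNFRSF10C, TNFRSF10D, EDA2R and TNFRSF1A, the adaptor FADD, the protease CASP8 and its regulator CFLAR. MYCN-high cells were grown without doxycycline and MYCN-low cells with it, and any effect of doxycycline cannot be told apart from that of MYCN. In each state cells were collected untreated, after 72 h in 0.1 µg/ml doxorubicin (a chemotherapy drug that damages DNA), and 3, 8 and 14 days after the drug was washed out. The series describes biological duplicates, lettered B and C. At 14 days the MYCN-low cells had replicate B alone. Each state had a single untreated group that all 4 treated times of that state share, so time in culture cannot be told apart from the drug. SHEP TET21N is 1 transgenic line, and what made the duplicates separate is not given in the sources used here, so p-values measure the spread between these libraries.

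Death receptors are cell-surface proteins of the tumour necrosis factor receptor superfamily whose intracellular death domain, once ligand has clustered the receptor, recruits the adaptor FADD. FADD brings in procaspase-8, which activates itself by proximity and then cleaves executioner caspases and the BCL2 family protein BID. CFLAR encodes FLIP, a caspase-8 relative without protease activity that competes for the same complex and can block or modulate that activation. In neuroblastoma the CASP8 gene is known for being silenced in many tumours and lines, and FAS, TNFRSF10B and EDA2R are known targets of p53, the transcription factor activated by DNA damage.

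Counts assigned to genes ran from 16530112 to 27638012 per library. MYCN averaged 683 CPM (a gene's counts relative to the library's total, with totals scaled by the trimmed mean of M-values) in untreated MYCN-high cells and 24.9 CPM in untreated MYCN-low cells, and every MYCN-high library at every time lay above every MYCN-low library. Of the adrenergic neuroblastoma markers PHOX2A was at 0 counts in all 19 libraries and DBH and TH had at most 3 counts each in all, while HAND2 had 46.0 to 325 CPM. The mesenchymal markers VIM (748 to 2655 CPM), PRRX1 (104 to 348 CPM) and CD44 (228 to 1081 CPM) were detected in every library. So were FN1 (60.7 to 10960 CPM), TWIST1 (24.1 to 140 CPM) and SNAI2 (1.13 to 89.9 CPM). The summed mesenchymal markers had 1465 to 2336 CPM in MYCN-high libraries and 4070 to 13800 CPM in MYCN-low libraries, and FN1 made up most of the highest sum. The leukocyte marker PTPRC reached at most 2.04 CPM, and the endothelial marker PECAM1 0.682 CPM. Of 3 epithelial markers CDH1 reached 0.217 CPM and EPCAM 2.02 CPM, while KRT8 had 60.5 to 390 CPM. Their sum was 61.2 to 164 CPM in MYCN-high libraries and 69.3 to 391 CPM in MYCN-low libraries, with 116 and 140 CPM in untreated MYCN-high, 348 and 391 CPM in untreated MYCN-low and 69.3 CPM in 14-day MYCN-low libraries. The structured RNAs RMRP and RPPH1 (the members found of a list of 7 that follows RNA quality and ribosomal RNA removal) summed to 3961 to 6462 CPM in treated MYCN-high libraries and 2521 to 2783 CPM in untreated ones, and to 2157 to 3597 CPM in treated MYCN-low libraries and 2473 to 5794 CPM in untreated ones. The part of these markers and RNAs in the results that follow was not tested.

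The receptor genes FAS, TNFRSF10B and EDA2R rose after doxorubicin in both MYCN states. In MYCN-low cells all 3 were still above untreated cells 14 days after washout, and in MYCN-high cells at 14 days none of the members passed the test, where 0% of all tested genes did. The difference between these 14-day changes missed the threshold for each of the 3. TNFRSF1A rose in MYCN-high cells at 72 h and 3 days and did not pass the test at any time in MYCN-low cells, and that difference between the states was itself past the threshold at both times. CASP8 passed no test against untreated cells in either state with all libraries in the fit, and in MYCN-low cells it was called at all 4 times without untreated replicate C. CFLAR was lower in MYCN-high than in MYCN-low cells at all 5 times when libraries were scaled to their gene counts. With scaling to the ERCC spike-in RNAs its sign turned at 72 h and 3 days, and neither of these differences was called. That scaling also moved the median of all genes, relative to which CFLAR stayed negative at both times. A difference is called here when its adjusted p is under 0.05 in an edgeR quasi-likelihood test with Benjamini-Hochberg adjustment over 14793 tested genes, and ± after a log2 fold change is its approximate standard error from that fit. In bulk RNA, fewer cells that carry a transcript and less of it per cell cannot be told apart.

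**Figure D1:**
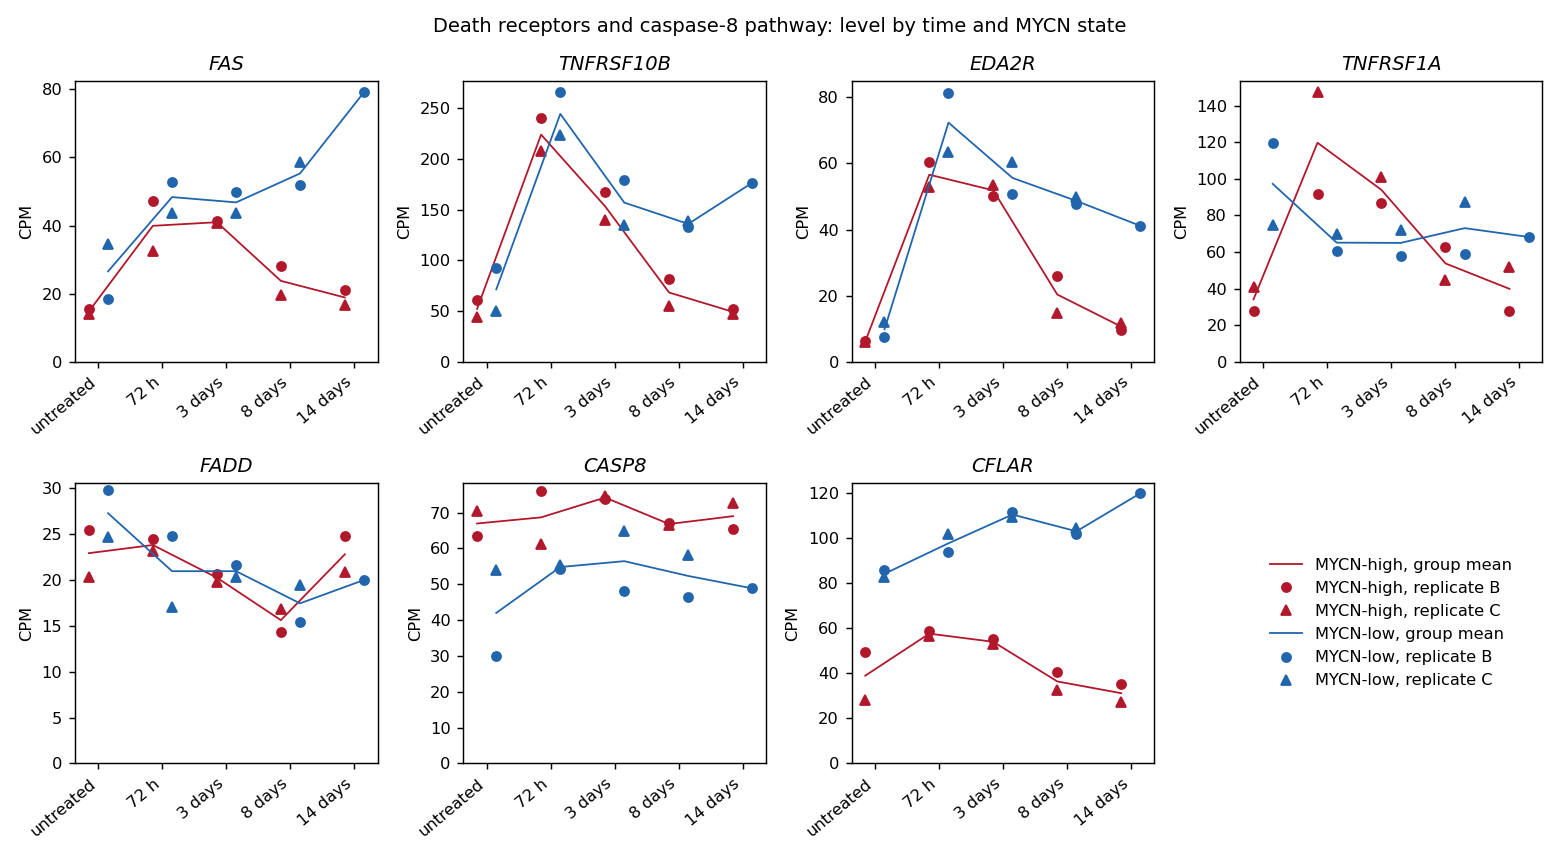
CPM of 7 members in each library (circles replicate B, triangles replicate C) by time, with lines through the group means, MYCN-high in red and MYCN-low in blue; each panel has its own axis from 0. EDA2R, FAS and TNFRSF10B stand above untreated cells at 72 h in both states, and at 14 days the MYCN-low library lies above both MYCN-high libraries for each of them.

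Promoters are shown for some of the receptors that moved: FAS and EDA2R, which rose in both states, and TNFRSF1A, which rose in MYCN-high cells alone. TNFRSF10B also rose in both states, but its promoter was left out and not searched. The sequences are from RefSeq on GRCh38.p14 and are the 250 bases before the most upstream start listed for the gene, 5′ to 3′ on the gene's strand, in lower case since no searched motif was found. They lie at chrX:66639270-66639519 on the minus strand for EDA2R, chr10:88990548-88990797 on the plus strand for FAS and chr12:6342077-6342326 on the minus strand for TNFRSF1A.
EDA2R: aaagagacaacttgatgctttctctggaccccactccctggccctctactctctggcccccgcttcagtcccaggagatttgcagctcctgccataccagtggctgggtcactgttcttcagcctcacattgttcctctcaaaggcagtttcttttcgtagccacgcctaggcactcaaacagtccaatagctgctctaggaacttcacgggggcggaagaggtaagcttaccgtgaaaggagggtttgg
FAS: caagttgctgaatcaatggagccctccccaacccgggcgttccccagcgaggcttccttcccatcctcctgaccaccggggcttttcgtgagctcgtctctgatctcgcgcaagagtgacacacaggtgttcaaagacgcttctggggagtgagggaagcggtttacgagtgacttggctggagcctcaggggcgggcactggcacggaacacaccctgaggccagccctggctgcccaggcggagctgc
TNFRSF1A: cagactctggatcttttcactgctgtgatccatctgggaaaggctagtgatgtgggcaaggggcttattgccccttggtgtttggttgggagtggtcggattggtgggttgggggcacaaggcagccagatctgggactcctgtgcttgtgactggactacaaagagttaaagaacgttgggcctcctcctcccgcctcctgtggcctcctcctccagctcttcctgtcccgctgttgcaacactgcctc
These windows had 54.0% G or C for EDA2R, 62.8% for FAS and 56.8% for TNFRSF1A, against a median of 58.0% over all promoters in the table. Windows were taken for 6 members (the 3 shown, CASP8, CFLAR and FADD), and the remaining members were left out of the search. None of the 6 held the 10-base p53 half-site consensus or the E-box CACGTG on either strand, counted whatever they overlapped. Of 35114 promoter windows of the same length, 5.57% held the half-site and 6.35% the E-box. For each of the 6 members the window lies in part or in whole within the gene as annotated in GENCODE. No match says only that these letters are not in the window.

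Of the 4 TRAIL receptors, which bind the ligand TNFSF10, TNFRSF10B alone was abundant. TNFRSF10A, the other TRAIL receptor with a death domain, had 2 counts in all, both in replicate B of the untreated MYCN-high cells, and 0 in the other 18 libraries. TNFRSF10D, a decoy receptor with a truncated death domain, had 1 count in a MYCN-high library at 3 days, 1 in a MYCN-low library at 8 days and 0 in the other 17. Neither passed the filter on low counts, and 3 counts over a group would correspond to 0.0608 to 0.153 CPM, a limit that covers counting error only. TNFRSF10C, a decoy receptor without an intracellular domain, had 87 counts over all libraries and none in 5 of them. It passed the filter only through MYCN-low libraries, so it was tested because of the state where it was higher. In untreated cells it had 0 and 0 counts in the MYCN-high libraries, against 20 and 1 counts in the MYCN-low libraries. That difference was called (adjusted p = 0.0489, edgeR quasi-likelihood test with Benjamini-Hochberg adjustment), at least 6.81-fold lower in MYCN-high cells against a floor of 3 counts over the group. It rests on replicate B of the untreated MYCN-low cells, without which the adjusted p was 0.530, and it lost the call in 13 of 19 fits without a library. In treated MYCN-high cells it had 11 and 2 counts at 72 h, 0 and 0 at 3 days, 3 and 2 at 8 days, and 1 and 1 at 14 days. In treated MYCN-low cells it had 7 and 11 counts at 72 h, 15 and 0 at 3 days, 4 and 7 at 8 days, and 2 at 14 days. Libraries of 1 group differed as much as the groups did, and no other comparison of TNFRSF10C passed with the filter and all libraries. Without the filter it was also called between the states at 3 days (adjusted p 0.0497) and at 72 h in MYCN-high cells (0.0479), and the 3-day difference was called without MYCN-low replicate C of that time (0.0477).

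FAS encodes the receptor for FASLG and carries a death domain. In MYCN-high cells it had 15.6 and 13.9 CPM untreated, 47.3 and 32.5 CPM at 72 h, 41.2 and 40.8 CPM at 3 days, 28.0 and 19.5 CPM at 8 days, and 21.0 and 16.8 CPM at 14 days. In MYCN-low cells it had 18.4 and 34.7 CPM untreated, 52.9 and 43.8 CPM at 72 h, 49.8 and 43.8 CPM at 3 days, 51.9 and 58.7 CPM at 8 days, and 79.2 CPM in the single library at 14 days. Every treated library lay above the untreated libraries of its state. The rise over untreated MYCN-high cells was 1.44 ± 0.27 on the log2 scale at 72 h (adjusted p = 0.000782, edgeR quasi-likelihood) and 1.47 ± 0.27 at 3 days (adjusted p = 0.00100). At 8 and 14 days the log2 differences were 0.69 and 0.35, with adjusted p of 0.132 and 0.768 in the same edgeR test. The 8-day difference was called without untreated MYCN-low replicate B (adjusted p 0.0470). In MYCN-low cells the order of the treated times was different, with the highest level at 14 days. FAS rose there by 0.86 ± 0.27 at 72 h, 0.82 ± 0.27 at 3 days, 1.06 ± 0.27 at 8 days and 1.57 ± 0.31 at 14 days, with edgeR adjusted p of 0.0310, 0.0385, 0.00988 and 0.00317. The first 3 of these calls depend on single libraries, and without replicate B of the untreated MYCN-low cells the adjusted p was 0.229 at 72 h, 0.281 at 3 days and 0.0868 at 8 days. They were also lost at 72 h without either 72 h library (0.176 without B, 0.0609 without C), at 3 days without either MYCN-low library of that time (0.169 without B, 0.0812 without C) or MYCN-high replicate C (0.0513), and at 8 days without MYCN-low replicate C (0.0544). The rise at 14 days kept its call without each untreated library, with adjusted p up to 0.0140.

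Between the states, FAS was lower in untreated MYCN-high than in untreated MYCN-low cells by 0.85 ± 0.27 on the log2 scale (adjusted p = 0.0245, edgeR quasi-likelihood), a 1.80-fold difference of the fitted levels. The untreated groups do not overlap, but the call was lost without MYCN-high replicate B (adjusted p 0.0600), MYCN-high replicate C (0.129) or MYCN-low replicate C (0.342). At 72 h and 3 days the states differed by -0.28 and -0.19, and neither passed. At 8 days FAS was 2.33-fold lower in MYCN-high cells (-1.22 ± 0.27, adjusted p = 0.00182), and at 14 days 4.202-fold lower (-2.07 ± 0.31, adjusted p = 0.000118), and both calls held in every edgeR fit run without a library. The single MYCN-low library of 14 days could not be left out of a 14-day comparison, here or for the members that follow.

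TNFRSF10B encodes the death-domain receptor for TRAIL also called DR5. In MYCN-high cells it had 60.4 and 43.8 CPM untreated, 240.0 and 208 CPM at 72 h, 167 and 139 CPM at 3 days, 81.3 and 55.1 CPM at 8 days, and 51.6 and 46.6 CPM at 14 days. MYCN-low cells had 92.7 and 49.95 CPM untreated, 266 and 223 CPM at 72 h, 179 and 135 CPM at 3 days, 133 and 139 CPM at 8 days, and 177 CPM at 14 days. It was highest at 72 h in both states, and its 14-day MYCN-high libraries fell within the range of the untreated ones. Against untreated cells it was 4.30-fold higher at 72 h in MYCN-high cells (2.11 ± 0.27 on the log2 scale, edgeR adjusted p = 2.79e-05) and 3.43-fold higher in MYCN-low cells (1.78 ± 0.27, adjusted p = 0.000190). At 3 days the rise was 1.56 ± 0.27 in MYCN-high cells (edgeR adjusted p = 0.000563) and 1.14 ± 0.27 in MYCN-low cells (adjusted p = 0.00599), and the MYCN-low call was lost without MYCN-low replicate B of that time (adjusted p 0.0712). At 8 and 14 days it differed by 0.39 and -0.09 in MYCN-high cells, neither of which passed. In MYCN-low cells it rose by 0.93 ± 0.26 at 8 days (edgeR adjusted p = 0.0180) and 1.31 ± 0.31 at 14 days (adjusted p = 0.00888). The 8-day call was lost without untreated MYCN-low replicate C (adjusted p 0.0948) or without either MYCN-low library of 8 days (0.0567 without B, 0.0745 without C).

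TNFRSF10B did not pass between the states in untreated cells (-0.45), at 72 h (-0.13) or at 3 days (-0.03). Without untreated MYCN-low replicate C the untreated difference was -0.84 and was called (edgeR adjusted p = 0.0129). It was 1.99-fold lower in MYCN-high than in MYCN-low cells at 8 days (-0.99 ± 0.26, edgeR adjusted p = 0.00646) and 3.60-fold lower at 14 days (-1.85 ± 0.31, adjusted p = 0.000250). Without MYCN-high replicate C the 8-day difference was -0.74, with an adjusted p of 0.0950. The gene overlaps RHOBTB2 on the other strand by 67 bases in GENCODE, RHOBTB2 had 144 to 333 counts per library, and the strand setting of the counting is not given in the sources used here.

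EDA2R, also called XEDAR, is the receptor of the A2 form of ectodysplasin and has no death domain. Of the 7 members with more than 1000 counts it had the widest range, in fold between its lowest and highest library. In MYCN-high cells it had 6.24 and 6.06 CPM untreated, 60.4 and 52.9 CPM at 72 h, 50.1 and 53.6 CPM at 3 days, 25.9 and 14.7 CPM at 8 days, and 9.60 and 11.6 CPM at 14 days. MYCN-low cells had 7.58 and 12.0 CPM untreated, 81.2 and 63.6 CPM at 72 h, 50.8 and 60.5 CPM at 3 days, 47.6 and 49.7 CPM at 8 days, and 41.1 CPM at 14 days. All treated libraries of both states lay above the untreated libraries of their state. At 72 h EDA2R was 9.20-fold higher than in untreated MYCN-high cells (3.20 ± 0.27 on the log2 scale, edgeR adjusted p = 1.18e-06) and 7.37-fold higher than in untreated MYCN-low cells (2.88 ± 0.27, adjusted p = 1.23e-06). The rise in MYCN-high cells was 3.08 ± 0.27 at 3 days and 1.73 ± 0.26 at 8 days (edgeR adjusted p = 0.00115), and at 14 days the difference of 0.79 ± 0.27 had an adjusted p of 0.468. In MYCN-low cells the rise was 2.50 ± 0.26 at 3 days, 2.31 ± 0.26 at 8 days and 2.06 ± 0.30 at 14 days (edgeR adjusted p = 0.000410). All 7 of these calls held in every edgeR fit run without a library (18 such fits for the MYCN-low rise at 14 days and 19 for the others).

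EDA2R in untreated cells averaged 6.15 CPM in MYCN-high and 9.78 CPM in MYCN-low libraries, a difference of -0.68 ± 0.27 that missed the threshold (edgeR adjusted p = 0.0593) but passed in the DESeq2 Wald test (adjusted p 0.0453), without the filter (0.0293) and in 3 fits without a library (0.0251 without untreated MYCN-low replicate B, 0.0310 without either MYCN-high library of 8 days). At 72 h and 3 days the states differed by -0.35 and -0.10 and did not pass. It was 2.39-fold lower in MYCN-high cells at 8 days (-1.26 ± 0.25, edgeR adjusted p = 0.000821) and 3.87-fold lower at 14 days (-1.95 ± 0.30, adjusted p = 0.000118).

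**Figure D2:**
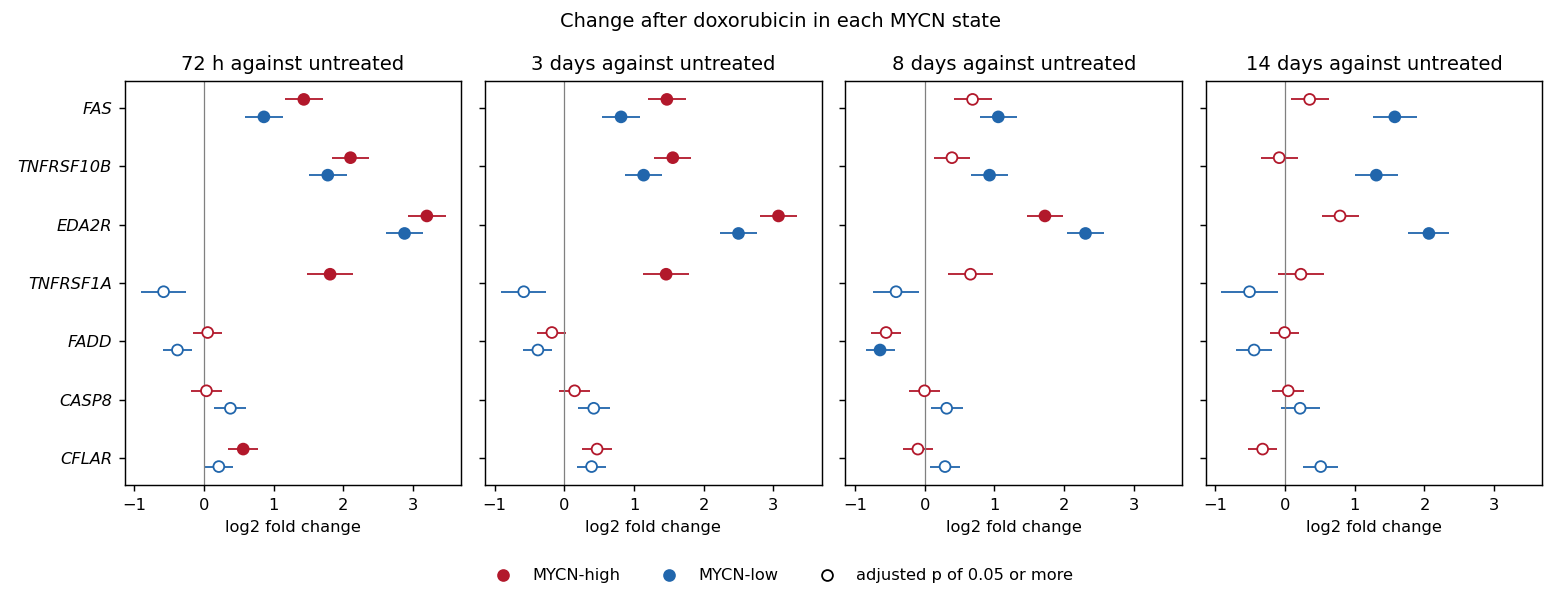
log2 fold change of each member against untreated cells of the same state at 72 h and 3, 8 and 14 days, MYCN-high in red above MYCN-low in blue, with bars of 1 approximate standard error and open points for adjusted p of 0.05 or more. FAS, TNFRSF10B and EDA2R are filled in both states at 72 h and 3 days, while at 14 days only MYCN-low points are filled. The FADD point at 8 days in MYCN-low cells turns positive (0.45) with ERCC scaling, without a call.

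TNFRSF1A encodes the main receptor for TNF, whose death domain binds TRADD and which can signal to NF-kappaB or to cell death. In MYCN-high cells it had 27.5 and 40.7 CPM untreated, 92.0 and 148 CPM at 72 h, 86.8 and 101.1 CPM at 3 days, 63.0 and 44.5 CPM at 8 days, and 27.6 and 52.0 CPM at 14 days. MYCN-low cells had 120 and 74.9 CPM untreated, 60.3 and 69.9 CPM at 72 h, 57.7 and 72.2 CPM at 3 days, 58.9 and 87.1 CPM at 8 days, and 68.2 CPM at 14 days. The untreated MYCN-high libraries lay below the untreated MYCN-low libraries, and at 72 h and 3 days the MYCN-high libraries lay above the MYCN-low ones. In MYCN-high cells TNFRSF1A rose 3.51-fold at 72 h (1.81 ± 0.34, edgeR adjusted p = 0.000625) and 2.76-fold at 3 days (1.46 ± 0.33, adjusted p = 0.00385). The 3-day call was lost without untreated MYCN-high replicate B (adjusted p 0.0535). In MYCN-low cells its differences from untreated cells were -0.58, -0.58, -0.41 and -0.51 at 72 h and 3, 8 and 14 days, and none passed. Without the filter on low counts the first 2 of these were called, with -0.60 (adjusted p 0.0253) and -0.61 (0.0218), and so was the 8-day difference in MYCN-high cells (0.60, adjusted p 0.0421; 0.66 and 0.238 with the filter). The change from untreated cells was larger in MYCN-high than in MYCN-low cells by 2.39 ± 0.47 at 72 h (edgeR adjusted p = 0.00775) and 2.04 ± 0.47 at 3 days (adjusted p = 0.0160). At 72 h this held in all 19 fits that left a library out, the highest adjusted p being 0.0409. At 3 days it was lost without MYCN-high untreated replicate B (0.0741) or 3-day replicate C (0.0654), or without MYCN-low untreated replicate B (0.0685) or 3-day replicate B (0.0768). At 8 and 14 days the difference between the changes was 1.07 and 0.74, with adjusted p of 0.182 and 0.430.

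TNFRSF1A in untreated cells was 2.85-fold lower in MYCN-high than in MYCN-low cells (-1.51 ± 0.33, edgeR adjusted p = 0.00288), without loss of the call on leaving out any library. At 72 h the difference had the other sign, 0.88 ± 0.33, and missed the threshold (edgeR adjusted p = 0.0540), although the DESeq2 Wald test gave 0.0305 and the fit with the replicate letter as a block 0.0403. It was also called without the filter on low counts (0.90, edgeR adjusted p = 0.000157) and in several fits without a library. At 3, 8 and 14 days it did not pass (0.53, -0.44 and -0.77). The 14-day difference was called without the filter on low counts (-0.79, adjusted p 0.00689) and without MYCN-high replicate C of that time (-1.36, adjusted p 0.0256).

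FADD, the adaptor between death domains and caspase-8, changed little. Its libraries had 14.4 to 24.8 CPM in treated and 25.5 and 20.4 CPM in untreated MYCN-high cells, and 15.5 to 24.8 CPM in treated and 29.8 and 24.7 CPM in untreated MYCN-low cells. Its group mean was lowest at 8 days in both states, with 14.4 and 16.9 CPM in MYCN-high and 15.5 and 19.4 CPM in MYCN-low cells. With ERCC scaling its 8-day difference from untreated MYCN-low cells was 0.45 and not called, and -0.55 relative to the median of all genes. With gene-count scaling FADD fell there by 0.64 ± 0.21 on the log2 scale (edgeR adjusted p = 0.0350). That call was lost in 6 of 19 fits without a library, with an adjusted p of 0.264 without MYCN-low replicate B of 8 days, and also without the filter on low counts (0.0521) and with DESeq2 size factors (0.0509). In MYCN-high cells the 8-day difference was -0.55 ± 0.21, with an adjusted p of 0.117. FADD passed no comparison of the states, where its log2 differences ran from -0.25 to 0.19.

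CASP8, the initiator caspase of the pathway, was detected in every library. MYCN-high cells had 63.3 and 70.6 CPM untreated, 76.0 and 61.3 CPM at 72 h, 73.7 and 74.7 CPM at 3 days, 67.2 and 66.4 CPM at 8 days, and 65.3 and 72.7 CPM at 14 days. MYCN-low cells had 30.1 and 53.9 CPM untreated, 54.1 and 55.4 CPM at 72 h, 48.1 and 64.8 CPM at 3 days, 46.4 and 58.3 CPM at 8 days, and 48.8 CPM at 14 days. At each time both MYCN-high libraries lay above the MYCN-low libraries. The difference between the states was called in untreated cells only, at 1.59-fold higher in MYCN-high cells (0.67 ± 0.23, edgeR adjusted p = 0.0337). That call was lost without MYCN-low replicate B (0.31, adjusted p 0.313), MYCN-high replicate B (0.0772) or MYCN-high replicate C (0.172). At 72 h and 3, 8 and 14 days the differences were 0.33, 0.40, 0.35 and 0.50, and none passed in the edgeR test. Against untreated cells CASP8 differed by -0.00 to 0.15 in MYCN-high and by 0.22 to 0.42 in MYCN-low cells, with no call. The MYCN-low values depend on which untreated libraries are used. Replicate B of these had the least CASP8 of all 19 libraries. Its RMRP and RPPH1 summed to 5794 CPM, against 2473 CPM in replicate C, and their part here was not tested. Replicate B is the only untreated MYCN-low library left on taking out replicate C. Without replicate C, CASP8 was higher than in untreated MYCN-low cells by 0.85 at 72 h, 0.89 at 3 days, 0.82 at 8 days and 0.73 at 14 days, all called. The difference between the states in the change from untreated cells was then also called, at -0.80 at 72 h, -0.79 at 3 days and -0.87 at 8 days (edgeR adjusted p = 0.0390, 0.0463 and 0.0378).

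CFLAR encodes the regulator FLIP. In MYCN-high cells it had 49.7 and 28.3 CPM untreated, 58.9 and 56.4 CPM at 72 h, 55.1 and 52.96 CPM at 3 days, 40.4 and 32.4 CPM at 8 days, and 35.2 and 27.2 CPM at 14 days. In MYCN-low cells it had 85.8 and 82.7 CPM untreated, 93.9 and 102 CPM at 72 h, 112 and 109 CPM at 3 days, 102 and 105 CPM at 8 days, and 120 CPM at 14 days. No MYCN-high library of any time reached the lowest MYCN-low library. CFLAR was lower in MYCN-high cells by 1.11 ± 0.21 on the log2 scale untreated (edgeR adjusted p = 0.00108), 2.83-fold at 8 days (adjusted p = 5.3e-05) and by 1.95 ± 0.25 at 14 days (adjusted p = 3.3e-05), the last being 3.85-fold. At 72 h the difference was -0.76 ± 0.21 (edgeR adjusted p = 0.0128) and at 3 days -1.03 ± 0.21 (adjusted p = 0.00160), and with ERCC scaling these became 1.78 and 0.77. Relative to the median of all genes, which that scaling also moved, CFLAR kept its negative sign at both times. The 72 h call was lost without replicate C of the MYCN-high (adjusted p 0.0766) or of the MYCN-low cells (0.0730) of that time. Against untreated cells CFLAR passed once, at 72 h in MYCN-high cells (0.57 ± 0.21, edgeR adjusted p = 0.0483), and lost that call with DESeq2 size factors (0.0572) and in 13 of 19 fits without a library, with 0.480 without untreated MYCN-high replicate C. At 3 days in MYCN-high cells the difference of 0.47 did not pass, and without untreated MYCN-high replicate B it was 0.95 and was called (adjusted p 0.00613). The antisense gene CFLAR-AS1 had 0 to 25 counts per library.

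The ratio of CFLAR to CASP8 counts within a library does not depend on how libraries are scaled. On the log2 scale it was -0.35 and -1.32 in untreated MYCN-high libraries, against 1.51 and 0.62 in untreated MYCN-low libraries. At 72 h it was -0.37 and -0.12 in MYCN-high and 0.79 and 0.88 in MYCN-low libraries, and at 14 days -0.89 and -1.42 in MYCN-high libraries and 1.30 in the MYCN-low library. All 10 MYCN-high libraries had fewer CFLAR than CASP8 counts, and all 9 MYCN-low libraries had more. These are counts per gene, so the ratio orders the libraries and does not compare the levels of the 2 genes. It was defined with earlier results of these data known and is given with no test.

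**Figure D3:**
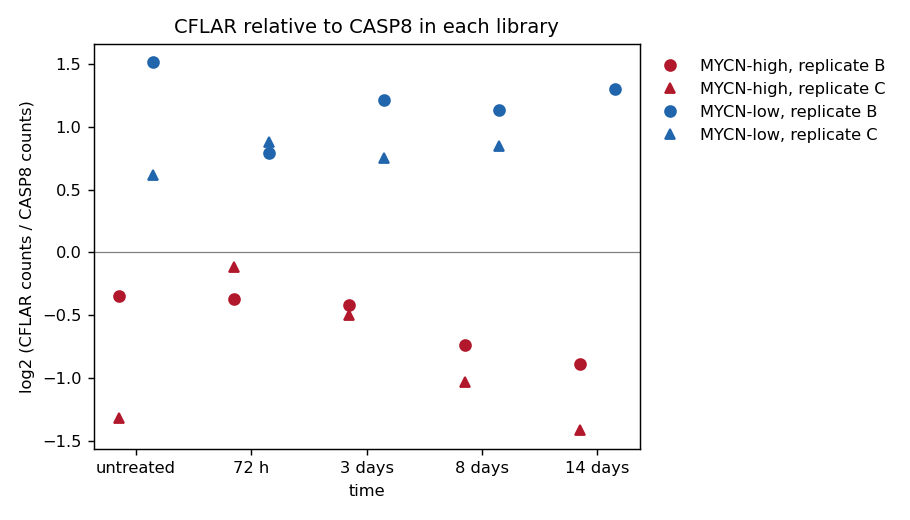
log2 ratio of CFLAR to CASP8 read counts in each library by time, MYCN-high in red and MYCN-low in blue, circles for replicate B and triangles for replicate C. The 10 MYCN-high libraries lie between -1.42 and -0.12, all below the 9 MYCN-low libraries at 0.62 to 1.51.

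Divided by the length of the principal transcript in GENCODE release 29, mean levels can be set side by side between genes. In untreated MYCN-high cells CASP8 stood highest with 41.1 CPM per kb, followed by TNFRSF1A with 15.3, TNFRSF10B with 12.6, FADD with 12.46, FAS with 5.76 and EDA2R with 1.78 CPM per kb. In untreated MYCN-low cells TNFRSF1A stood highest with 43.8 CPM per kb, followed by CASP8 with 25.8, TNFRSF10B with 17.2, FADD with 14.8, FAS with 10.3 and EDA2R with 2.82. At 72 h TNFRSF10B was at 54.0 CPM per kb in MYCN-high and 59.0 CPM per kb in MYCN-low cells, above CASP8 in both states (42.1 in MYCN-high and 33.6 in MYCN-low cells). Levels that lie as close as TNFRSF10B and FADD in untreated cells are within the spread of the libraries. CFLAR was left out because its principal transcripts differ in length from 2128 to 14672 bases.

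In MYCN-high cells 5 members rose at 72 h and none fell, against 18.3% of all tested genes higher and 17.9% lower. They were EDA2R, TNFRSF10B, TNFRSF1A, FAS and CFLAR, of 8 members tested. At 3 days the first 4 of these rose and none fell, against 15.1% and 15.7% of tested genes. At 8 days EDA2R alone rose and none fell, against 4.49% and 4.09%. At 14 days no member passed, against 0% of tested genes higher and 0% lower in edgeR, where 1245 of 14793 genes had an unadjusted p under 0.05 and the DESeq2 Wald test called 68. Of the members EDA2R had an unadjusted p under 0.05 there, and none was called by DESeq2. The median log2 fold change of the 8 tested members was 1.62 at 72 h, 0.97 at 3 days, 0.52 at 8 days and 0.14 at 14 days, against -0.01 to 0.03 for all tested genes. These medians include TNFRSF10C, which passed the filter only through MYCN-low libraries. Its values of 5.60, 0, 4.42 and 3.32 at these times rest on untreated MYCN-high libraries with 0 counts. Medians without it were not computed.

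In MYCN-low cells FAS, TNFRSF10B and EDA2R made up the 3 members that rose at each of the 4 times. At 72 h none fell, against 10.2% of tested genes higher and 12.1% lower, and at 3 days none fell, against 10.5% and 12.7%. At 8 days FADD was the 1 member that fell with gene-count scaling (not with ERCC scaling), against 10.2% higher and 14.6% lower. At 14 days none fell, against 7.63% higher and 10.7% lower. The members' median log2 fold change was 0.30 at 72 h, 0.41 at 3 days, 0.30 at 8 days and 0.36 at 14 days, against -0.05 to 0.02 for all tested genes. TNFRSF10C is in these medians too, with -0.33, -0.66, -1.29 and -2.36 at these times from at most 20 counts in a library.

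Between the states, 1 member (CASP8) was higher and 4 (FAS, TNFRSF10C, TNFRSF1A and CFLAR) were lower in untreated MYCN-high than in untreated MYCN-low cells, against 16.5% of tested genes higher and 18.6% lower. TNFRSF10C passed the filter only through MYCN-low libraries, so its place in this count gives no support to a lower level in MYCN-high cells. CFLAR was the 1 member lower at 72 h, against 15.5% higher and 14.4% lower, and the 1 member lower at 3 days, against 17% higher and 14.8% lower, in both cases with the other sign under ERCC scaling. At these 2 times no receptor passed between the states in the edgeR fit with the filter and all libraries. TNFRSF1A at 72 h was called by the DESeq2 Wald test, without the filter and with the block, and TNFRSF10C at 3 days without the filter. At 8 days FAS, TNFRSF10B, EDA2R and CFLAR were lower and none higher, against 23.4% higher and 20.5% lower. The same 4 members were lower at 14 days and none higher, against 21.4% higher and 20.5% lower. At 8 and 14 days the summed mesenchymal markers had 1508 to 1973 CPM in MYCN-high and 6282 to 13800 CPM in MYCN-low libraries. FN1 made up most of the highest of these sums. RMRP and RPPH1 summed to 3961 to 6462 CPM in MYCN-high and 2750 to 3518 CPM in MYCN-low libraries. The part of these markers and RNAs in the differences between the states was not tested.

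**Figure D4:**
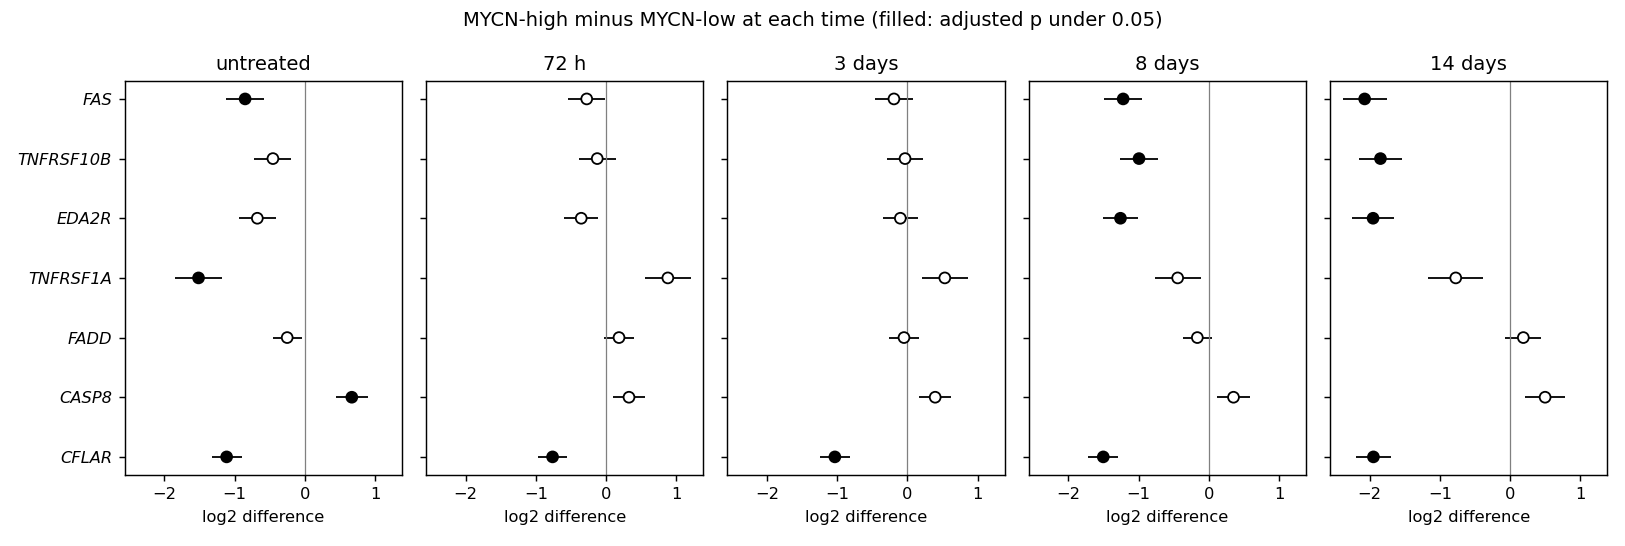
log2 difference of each member between MYCN-high and MYCN-low cells at each time, with bars of 1 approximate standard error and filled points for adjusted p under 0.05; points left of 0 are lower in MYCN-high cells. CFLAR is filled at all 5 times (with ERCC scaling its sign turns at 72 h and 3 days, without a call), and FAS, TNFRSF10B and EDA2R are filled at 8 and 14 days.

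The difference between the states in the change from untreated cells was past the threshold for 1 member, TNFRSF1A, at 72 h and at 3 days, in each case larger in MYCN-high cells. Of all tested genes 6.63% were called in that direction and 4.06% in the other at 72 h, and 5.1% and 2.48% at 3 days. At 8 days no member was called in the edgeR fit, against 4.41% and 1.94% of tested genes. There 1 member (TNFRSF1A) had an unadjusted p under 0.05, against 3384 of 14793 genes. The DESeq2 Wald test called 0 members, against 1625 genes, and 1 member was called without the filter on low counts. At 14 days none was called in edgeR, against 4.87% and 2.53%. Of the members 4 had an unadjusted p under 0.05, against 3458 of 14793 genes, and DESeq2 called 3, against 1761 genes. The 14-day values were -1.22 ± 0.42 for FAS (edgeR adjusted p = 0.0881), -1.39 ± 0.41 for TNFRSF10B (0.0507) and -1.28 ± 0.40 for EDA2R (0.0657), with smaller changes in MYCN-high cells, and -0.83 ± 0.33 for CFLAR (0.138). The 3 receptors were called by the DESeq2 Wald test (adjusted p 0.0322 for FAS, 0.0139 for TNFRSF10B and 0.0178 for EDA2R), so whether the late changes of these receptors differ between the states depends on the test used. The MYCN-low side of each rests on 1 library.

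Of the 8 ligands listed with the pathway, FASLG and TNF were at 0 CPM in every library, and 3 passed the filter (TNFSF10, TNFSF12 and TNFSF15). TNFSF10, which encodes TRAIL, averaged at most 0.699 CPM in a MYCN-high group and 1.66 CPM in a MYCN-low group. Its difference between the states at 72 h (-3.57, edgeR adjusted p = 0.0488) lost the call in 13 of 19 fits without a library. TNFSF12, which encodes TWEAK, had 2.29 and 1.39 CPM in untreated MYCN-high cells and 10.1 and 5.47 CPM in untreated MYCN-low cells (-2.08 ± 0.42, edgeR adjusted p = 0.00159). TNFSF15, a ligand of the death receptor TNFRSF25, had 0.509 and 0.191 CPM in MYCN-high and 2.53 and 2.32 CPM in MYCN-low cells at 72 h (edgeR adjusted p = 0.0199), a call lost in 3 fits without a library (0.137 without MYCN-high replicate C). With ERCC scaling the signs of TNFSF12 and TNFSF15 between the states turned at 72 h. In MYCN-low cells TNFSF15 rose over untreated libraries of 0 and 0.0399 CPM at 72 h (adjusted p = 0.00130) and reached 5.09 CPM at 14 days. Between the states 0 ligands were higher in MYCN-high cells at any time, and 1, 3, 3, 2 and 2 of the 3 tested were lower in untreated cells, at 72 h and at 3, 8 and 14 days. Of all tested genes 15.5% to 23.4% were higher and 14.4% to 20.5% lower at these times.

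Of 9 other receptors and soluble decoys 7 were tested, and 0 to 3 of them were lower and 0 to 2 higher in MYCN-high than in MYCN-low cells, depending on the time, against the same 14.4% to 20.5% and 15.5% to 23.4% of all tested genes. TNFRSF12A, the receptor of TWEAK, fell in MYCN-high cells by 1.37 ± 0.26 at 3 days (edgeR adjusted p = 0.00123), with the other sign (0.25) under ERCC scaling, and by 2.26 ± 0.27 at 8 days (adjusted p = 0.000226). In MYCN-low cells it also fell, by 1.20 ± 0.26 at 72 h (edgeR adjusted p = 0.00377, lost without MYCN-low replicate B of that time, 0.0566) and by 0.97 ± 0.26 at 8 days (adjusted p = 0.0129), the 8-day sign turning to 0.19 with ERCC scaling. The 8-day call was lost in 3 fits without a library (0.110 without untreated MYCN-low replicate B). It had 22.6 and 20.7 CPM in MYCN-high cells at 8 days, against 128 and 123 CPM in MYCN-low cells. TNFRSF21, the death receptor DR6, had 60.4 and 62.2 CPM at 3 days and 23.3 and 19.0 CPM in untreated MYCN-high cells, a rise of 1.54 ± 0.20 (edgeR adjusted p = 7.32e-05).

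Of the receptor-proximal signalling genes 20 were tested, of 22 found. In untreated cells 2 were higher and 10 lower in MYCN-high than in MYCN-low cells, against 16.5% and 18.6% of all tested genes. At 72 h in MYCN-high cells 7 rose and 3 fell, against 18.3% and 17.9%, and in MYCN-low cells none rose and 3 fell, against 10.2% and 12.1%. TNFAIP3, an inhibitor of NF-kappaB signalling that NF-kappaB itself induces, had 15.7 and 15.7 CPM at 72 h and 2.19 and 1.02 CPM in untreated MYCN-high cells (3.29 ± 0.43, edgeR adjusted p = 3.12e-05). In MYCN-low cells it had 3.41 and 2.37 CPM at 72 h and 3.79 and 4.15 CPM untreated, and 26.8 CPM at 14 days (2.75 ± 0.45 over untreated, adjusted p = 0.000917). BIRC3, a ubiquitin ligase of the TNF receptor complex, had 27.4 and 19.2 CPM at 72 h in MYCN-high cells, against 9.80 and 3.29 CPM untreated (1.84 ± 0.63, adjusted p = 0.0329). That call was lost without untreated MYCN-high replicate C (adjusted p 0.243) and in 1 other fit without a library. In the MYCN-low library at 14 days BIRC3 had 96.9 CPM, and it had 7.02 and 1.91 CPM in the MYCN-high libraries of that time (-4.45 ± 0.75, edgeR adjusted p = 0.000262). The difference between the states in the change from untreated cells was called for TNFAIP3 at every time, with 3.75 ± 0.59 at 72 h, 3.27 ± 0.58 at 3 days, 2.20 ± 0.57 at 8 days and -2.52 ± 0.64 at 14 days (edgeR adjusted p = 0.00280, 0.00371, 0.0354 and 0.0281), which was singled out after its values were seen. The 8-day call was lost in 6 fits without a library (adjusted p 0.133 without untreated MYCN-high replicate C) and the 14-day call in 3 (0.158 without untreated MYCN-high replicate B).

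MLKL, the effector of necroptosis, had 48.9 and 39.1 CPM in untreated MYCN-high cells and 10.9 and 17.8 CPM in untreated MYCN-low cells (1.61 ± 0.23, edgeR adjusted p = 0.000121). PEA15, a death effector domain protein that binds FADD and caspase-8, had 62.9 and 60.2 CPM in MYCN-high cells at 8 days, against 376 and 282 CPM in MYCN-low cells (-2.42 ± 0.27, adjusted p = 6.49e-06). PEA15 was also lower in MYCN-high cells at 72 h (-2.13 ± 0.27) with gene-count scaling, and with ERCC scaling that difference was 0.47.

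All 14 downstream genes were tested. In untreated cells 4 were higher and 1 lower in MYCN-high than in MYCN-low cells, against 16.5% and 18.6% of all tested genes, and at 14 days again 4 and 1, against 21.4% and 20.5%. PARP1, a DNA repair enzyme cleaved by executioner caspases, had 430 and 379 CPM in MYCN-high cells at 14 days and 131 CPM in the MYCN-low library (1.62 ± 0.20, edgeR adjusted p = 2.39e-05). BID, the caspase-8 substrate that links the receptors to mitochondria, had 88.1 and 107 CPM in MYCN-high and 33.1 and 30.9 CPM in MYCN-low cells at 72 h (1.61 ± 0.21, adjusted p = 5.06e-05). DFFA, the inhibitor of the caspase-activated nuclease DFFB, had 146 and 186 CPM in MYCN-high and 68.7 and 69.8 CPM in MYCN-low cells at 72 h (1.26 ± 0.16, adjusted p = 3.85e-05). XIAP, an inhibitor of executioner caspases, was lower in MYCN-high cells at 14 days by 1.48 ± 0.18 (edgeR adjusted p = 2e-05), and was named after its values were seen. At 72 h against untreated cells 4 downstream genes rose and 5 fell in MYCN-high cells, against 18.3% and 17.9% of all tested genes, and none rose and 2 fell in MYCN-low cells, against 10.2% and 12.1%. PARP1 differed at 72 h in MYCN-high cells by -1.09 ± 0.15 with gene-count scaling and had the other sign (1.13) under ERCC scaling. Of 202 called results of the pathway genes over all comparisons, 50 changed sign under ERCC scaling and 0 did so relative to the median of all genes, and 117 lost their call in at least 1 fit without a library.

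**Figure D5:**
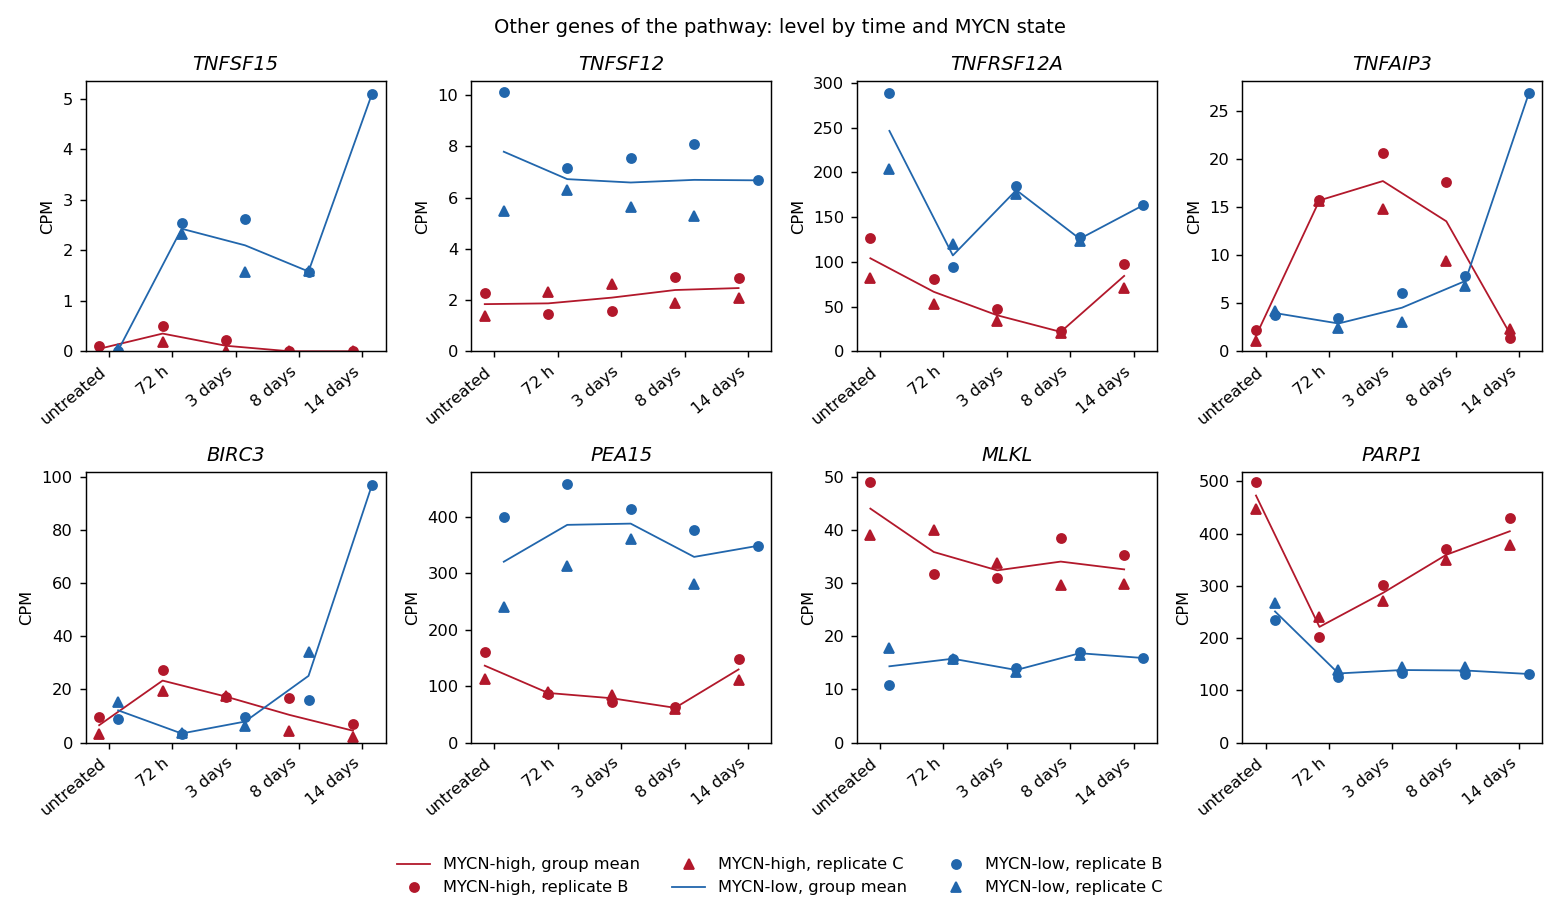
CPM of 8 further genes of the pathway in each library by time (circles replicate B, triangles replicate C, lines through group means), MYCN-high in red and MYCN-low in blue; each panel has its own axis from 0. TNFAIP3 and BIRC3 are high at 72 h in MYCN-high cells and highest in the 14-day MYCN-low library, at 26.8 and 96.9 CPM.

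The genes whose pattern was most like each member were ranked by Pearson r of log2 CPM over the 19 libraries among 10436 genes with a mean of at least 5 CPM. They are a description over libraries that share MYCN state, drug and culture. For EDA2R they were WDR63 (r = 0.988), ANKRA2 (0.977) and TRIM4 (0.972). For TNFRSF10B they were CDKN1A (0.967), SESN2 (0.967) and ANXA4 (0.959), and for FAS SIL1 (0.968), WDR44 (0.960) and GOLGB1 (0.959). For CFLAR they were TGOLN2 (0.974), RRBP1 (0.973) and DNASE1L1 (0.972). TNFRSF10C, with its few counts, was less closely matched, by WASH2P (0.816), NIT1 (0.789) and PIAS3 (0.750). CDKN1A, the p53-induced inhibitor of cyclin-dependent kinases given here as a check of the drug response, averaged 1117 CPM at 72 h and 23.2 CPM untreated in MYCN-high cells, and 1764 CPM at 72 h and 99.3 CPM untreated in MYCN-low cells. At 14 days it averaged 35.99 CPM in MYCN-high cells and had 661 CPM in the MYCN-low library. MDM2, the p53-induced inhibitor of p53, averaged 324 CPM at 14 days in MYCN-high cells, against 303 CPM untreated, and had 975 CPM at 14 days in MYCN-low cells, against 247 CPM untreated.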

How the data were processed

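RNA was sequenced in 19 libraries in 10 groups. Per the labels' protocols, ERCC spike-in RNA was added to each sample, RiboGold took out ribosomal RNA and ScriptSeq was the library kit. Their molecule field, however, reads polyA RNA. The submitters' processing notes name STAR 2.4.0h1, HTSeq and hg19. The annotation and strand setting are not given in the sources used here. The authors deposited whole-number read counts per gene symbol, with 23367 gene lines and 92 ERCC lines.

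Analysis used edgeR 4.0.16 (limma 3.58.1, R 4.3.3): ERCC lines set aside, filterByExpr on the groups (14793 genes kept, 63.3%), TMM scaling, and the quasi-likelihood fit on a design of 1 term for each group, with 9 residual degrees of freedom and a biological coefficient of variation of 0.204. The single MYCN-low library of 14 days is taken to have the spread of the remaining groups. Each of 17 contrasts was adjusted by the Benjamini-Hochberg method (threshold 0.05). Alternatives were DESeq2 1.42.0 size factors, its Wald test, ERCC scaling, no filter, each library left out in turn, and replicate letters as a block. Of the pathway lists, genes were named if called, changed by at least 1 on the log2 scale, at a mean of at least 1 CPM, with no overlap between the groups, up to 4 per direction. A selection of these is given. The results of FASLG, TNF, TNFSF10 and XIAP were given outside this rule. So were those of TNFRSF12A at 8 days in MYCN-low cells and of TNFAIP3 between the changes. The members, lists and tests were chosen with earlier results of these data known. No pair of libraries was identical. The procedure was tested on simulated counts. Promoters came from RefSeq (GRCh38.p14) and transcript lengths from GENCODE release 29; coordinates of that build are not those of the counting. Plots came from matplotlib 3.10.9 under Python 3.11.15.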

Additional observations from a re-analysis of the deposited data

Results flagged for a closer look

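The change of TNFRSF1A from untreated cells differed between the MYCN states at 72 h and at 3 days, by a test of the difference itself. At 72 h it was 2.39 ± 0.47 larger on the log2 scale in MYCN-high than in MYCN-low cells (edgeR adjusted p = 0.00775), and at 3 days 2.04 ± 0.47 larger (adjusted p = 0.0160). The 72 h call held in the 19 fits without a library, and the 3-day call was lost in 4 of 19, with adjusted p up to 0.0768 without MYCN-low replicate B of 3 days. The untreated libraries, which both results share, had 27.5 and 40.7 CPM in MYCN-high and 120 and 74.9 CPM in MYCN-low cells. The structured RNAs RMRP and RPPH1 summed to 5012 to 6361 CPM at 72 h in MYCN-high cells, against 2521 to 2783 CPM untreated, and to 2157 to 3597 CPM at 72 h in MYCN-low cells, against 2473 to 5794 CPM untreated. Their part in the TNFRSF1A results was not tested. Groups of 2 libraries are too small to test a single library for standing apart.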

How the results depend on the processing

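There were 40 called results of the members. All 40 kept their direction and call in the DESeq2 Wald test and with the replicate letter as a block, 38 did so with DESeq2 size factors and 39 without the filter on low counts. With ERCC scaling no member was called in any comparison (0 members in each), where 0 to 70 of 14793 genes were called per comparison, and 3 results reversed: CFLAR between the states to 1.78 at 72 h and 0.77 at 3 days, and FADD at 8 days in MYCN-low cells to 0.45. That scaling moved the median of all genes by -1.49 to 2.50 on the log2 scale, and relative to that median 40 of 40 results kept their sign. The ERCC share differed 1.08 to 16.5-fold between replicates of a group. DESeq2 size factors moved the median by at most 0.09. Leaving out 1 library gave 753 values, of which 59 lost the call and none reversed.

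Between the states at 72 h, 2 members were called by the DESeq2 Wald test, without the filter and with the block, and at 3 days 2 without the filter. At 8 days against untreated MYCN-high cells 2 were called without the filter. For the difference between the changes, 1 was called at 8 days without the filter, and at 14 days 2 with DESeq2 size factors, 3 by the Wald test, 3 without the filter and 1 with the block. With a library left out, the members called ran from 2 to 5 between the states untreated, 0 to 2 at 72 h, 1 to 2 at 3 days, 3 to 4 at 8 days and 4 to 5 at 14 days. Against untreated cells they ran from 4 to 5 at 72 h, 4 to 4 at 3 days, 1 to 2 at 8 days and 0 to 0 at 14 days in MYCN-high cells, and from 2 to 4, 1 to 4, 1 to 4 and 3 to 4 in MYCN-low cells. For the difference between the changes they ran from 1 to 2 at 72 h, 0 to 2 at 3 days, 0 to 1 at 8 days and 0 to 2 at 14 days. For the 14-day difference 1096 of 14793 genes were called in the main fit, 1085 with DESeq2 size factors and 1761 by the Wald test. Calls over all genes were not counted for the Wald test between the states at 72 h. They were also not counted for the fits without the filter, with the block or without a library. The member counts of those fits therefore cannot be set against a share of all genes. The cause of the shifts in members called was not tested.

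The letters do not mark shared batches in the labels, and deviations of same-lettered libraries correlated at -0.208 to 0.315 over 36 pairs of groups, 22 of them over 0.1. Groups of 2 give wide errors, so a missed threshold does not show that levels were equal.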
